A study of Mus musculus with 20 samples.

Results

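Abi3bp and Matn2 encode secreted proteins of the extracellular matrix. All 4 probe sets that the platform annotation gives to one of these symbols alone, 2 for each gene, are described here, out of 45037 probe sets and 18193 genes measured by array in mouse motor and sensory cortex. The 2 genes were chosen from these data because Abi3bp was lower and Matn2 higher in EAE cortex than in healthy cortex, so the EAE-against-healthy values of the 4 probe sets are given as a description, without a test. What the choice did not use was tested: the difference between the cortical regions of the same mouse, the difference of the EAE effect between the regions, and the relation to clinical grade.

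Abi3bp encodes ABI family member 3 binding protein, a secreted protein with fibronectin type III domains that was found through its binding to the SH3 domain of Abi3, an adaptor of the actin-regulating WAVE complex. Matn2 encodes matrilin-2, the largest of the matrilins, which assembles into filaments and connects collagen fibrils, fibronectin, fibrillins, laminins and nidogens in matrix and basement membranes. The matrix of the adult brain is otherwise built mainly of hyaluronan, chondroitin sulphate proteoglycans and tenascins, with fibrillar collagens largely limited to the meninges and vessels.

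Experimental autoimmune encephalomyelitis (EAE) is a neuroinflammatory model of multiple sclerosis, and the study asked which genes differ in cortex between mice with EAE and healthy mice. The 4 groups were motor cortex of EAE mice (6 arrays), motor cortex of healthy mice (4 arrays), sensory cortex of EAE mice (6 arrays) and sensory cortex of healthy mice (4 arrays), with 1 array of each region for each of the 10 mice. All mice were female, of the strain C57Bl6 and 8 to 12 weeks old, and no transgene or deletion is labelled. The EAE mice had received MOG35-55, a myelin oligodendrocyte glycoprotein peptide (100 µg under the skin of the rear flanks and 50 µg at the base of the tail), and 400 ng of pertussis toxin into the peritoneum on days 0 and 3. They were collected with paralysis of 1 or both hindlimbs at EAE day 18 to 21 by their labels, and at day 21 by the protocol. The healthy mice shared their cages, and no injection is described for them, so the disease, the peptide and the toxin cannot be told apart in these comparisons. The mice belonged to 2 cohorts, with 3 EAE mice and 2 healthy mice in either one. The tissue was dissected by atlas from 1 mm slices of forebrains perfused with saline and RNAlater.

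Values are log2 expression on the authors' scale, on which a difference of 1 is a doubling, and errors of groups are SDs over mice. Array medians lay between 8.22 and 8.32, and arrays of the same group correlated at 0.988 to 0.998 over all probe sets. The sensory array of EAE mouse 3 stood apart, with a root mean square distance of 0.269 from its group's median, against 0.0927 to 0.194 for the other 19 arrays. A pair of healthy arrays, the motor array of mouse 4 and the sensory array of mouse 1, had a later chip processing day than all others. Slc17a7, the vesicular glutamate transporter of cortical excitatory neurons, averaged 12.74 to 12.87 in the 4 groups. The labelled regions differed in layer genes, by limma with Benjamini-Hochberg adjustment: Rorb, a transcription factor of layer 4 neurons, was lower in motor than in sensory cortex by -1.21 in EAE mice (adjusted p = 4.44e-06) and by -1.11 in healthy mice (adjusted p = 6.82e-05). Fezf2, a transcription factor of layer 5 projection neurons, was higher in motor cortex by 0.74 in EAE mice (adjusted p = 0.000713) and by 0.70 in healthy mice (adjusted p = 0.00654).

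Abi3bp was lower in EAE cortex in both regions. Of its probe sets, 1427054_s_at had a mean of 7.58 over the 20 arrays, above 38.1% of all probe sets, and 1427053_at had a mean of 5.88, above 11.4%. The second is thus a dim probe set, under the mean of 6 that an alternative fit asked for. In motor cortex, 1427054_s_at ran from 6.80 to 7.13 in EAE mice, with a median of 6.96, against 8.55, 8.22, 8.45 and 8.59 in healthy mice 1 to 4. Every EAE mouse lay below every healthy mouse, with a gap wider than the range of either group. The means were 6.96 ± 0.11 in EAE mice and 8.45 ± 0.16 in healthy mice (SD, n = 6 and 4), a difference of -1.50 ± 0.08 (SE), which is 2.82-fold lower. The second probe set, 1427053_at, averaged 5.27 ± 0.15 in EAE mice and 6.68 ± 0.22 in healthy mice, a difference of -1.41 ± 0.10. Since these are whole tissue pieces, fewer cells that make a transcript and less of it per cell cannot be told apart.

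In sensory cortex, 1427054_s_at of Abi3bp ran from 5.81 to 7.59 in EAE mice, with a median of 7.16, against 8.47, 8.41, 8.64 and 8.68 in healthy mice 1 to 4. The groups again did not overlap, but the EAE mice were spread more widely than in motor cortex, and the lowest value was that of mouse 3, whose array stood apart. The means were 6.99 ± 0.66 in EAE mice and 8.55 ± 0.13 in healthy mice, a difference of -1.56 ± 0.29 (SE), or 2.96-fold lower. On 1427053_at the means were 5.38 ± 0.41 in EAE mice and 6.73 ± 0.02 in healthy mice, a difference of -1.35 ± 0.18, and mouse 3 was again the lowest with 4.69. Without EAE mouse 3, the sensory differences of Abi3bp were -1.32 ± 0.17 on 1427054_s_at and -1.22 ± 0.12 on 1427053_at. Within cohorts 1 and 2, 1427054_s_at differed by -1.46 and -1.53 in motor cortex and by -1.59 and -1.54 in sensory cortex.

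Matn2 was higher in EAE cortex in both regions. Its probe sets 1419442_at and 1455978_a_at had means of 8.63 and 8.40, near the middle of all probe sets. In motor cortex, 1419442_at ran from 9.17 to 9.69 in EAE mice, with a median of 9.38, against 8.78, 8.65, 8.58 and 8.56 in healthy mice 1 to 4. The lowest EAE mouse stood above the highest healthy mouse. The means were 9.39 ± 0.18 in EAE mice and 8.64 ± 0.10 in healthy mice, a difference of 0.75 ± 0.09 (SE), or 1.68-fold. The motor difference was 0.59 within cohort 1 and 0.91 within cohort 2. On 1455978_a_at, the motor means were 9.09 ± 0.24 in EAE mice and 8.39 ± 0.11 in healthy mice, a difference of 0.70 ± 0.12.

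In sensory cortex, 1419442_at of Matn2 ran from 8.30 to 8.70 in EAE mice, with a median of 8.65, against 7.25, 7.69, 7.51 and 7.74 in healthy mice 1 to 4. EAE mice 4, 5 and 6, all of cohort 2, had nearly the same value at 8.70, 8.70 and 8.69, and EAE mouse 1 had the lowest. The means were 8.57 ± 0.17 in EAE mice and 7.55 ± 0.22 in healthy mice, a difference of 1.03 ± 0.09 (SE), or 2.04-fold. On 1455978_a_at, the sensory means were 8.43 ± 0.20 in EAE mice and 7.31 ± 0.23 in healthy mice, a difference of 1.11 ± 0.12, or 2.16-fold. EAE and healthy mice did not overlap on any of the 4 probe sets in either region. Over all 45037 probe sets, the groups did not overlap for 4.13% in motor cortex and 4.59% in sensory cortex, while limma called 0.722% in motor and 0.577% in sensory cortex at an adjusted p under 0.05, and since the genes were chosen on this contrast nothing is read from their count.

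**Figure D1:**
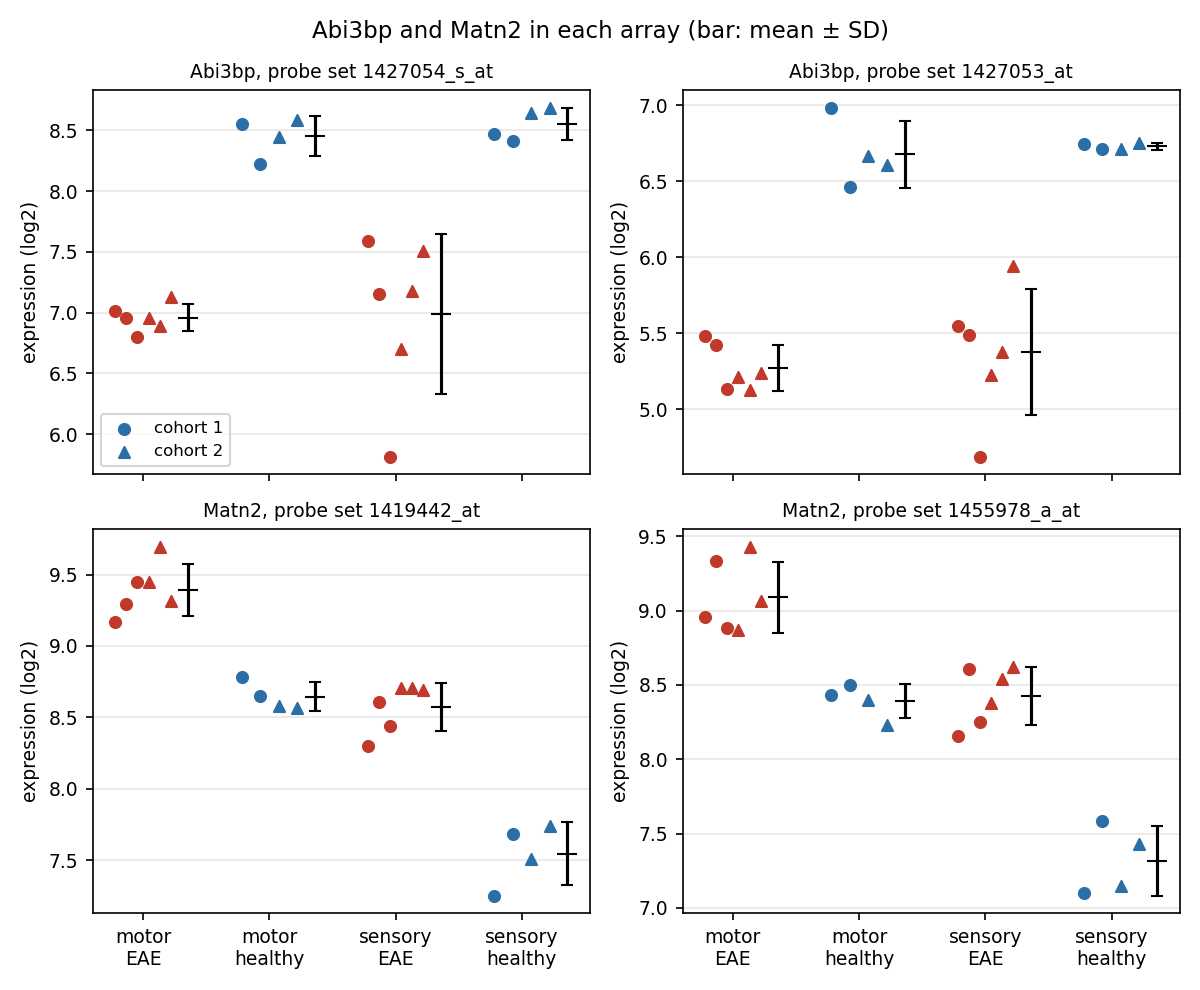
Log2 expression (vertical axes, a separate range for each panel) of the 2 Abi3bp and 2 Matn2 probe sets in each of the 20 arrays, by region and condition (EAE red, healthy blue), with circles for cohort 1, triangles for cohort 2 and a bar for the mean ± SD. Abi3bp 1427054_s_at lies at 6.80 to 7.13 in motor EAE arrays, below all healthy arrays, while Matn2 1419442_at lies at 9.17 to 9.69 in motor EAE arrays, above all others.

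The order of the 4 groups differed between the genes. For Abi3bp, the groups ordered by condition: the EAE groups of the 2 regions overlapped, with means of 6.96 in motor cortex and 6.99 in sensory cortex on 1427054_s_at, and so did the healthy groups, with 8.45 in motor cortex and 8.55 in sensory cortex. For Matn2, motor EAE cortex was highest and sensory healthy cortex lowest on both probe sets, and these 2 groups overlapped with no other. Sensory EAE cortex and motor healthy cortex lay between them and overlapped, with Matn2 means of 8.57 in sensory EAE cortex and 8.64 in motor healthy cortex on 1419442_at. On 1455978_a_at these means were 8.43 in sensory EAE cortex and 8.39 in motor healthy cortex.

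The regions were compared within each mouse, as the motor value minus the sensory value, and tested by limma over all probe sets with Benjamini-Hochberg adjustment. Matn2 was higher in motor cortex in every mouse of both conditions. On 1419442_at, the differences were 0.87, 0.68, 1.01, 0.74, 0.99 and 0.62 in EAE mice 1 to 6, against 1.53, 0.97, 1.07 and 0.83 in healthy mice 1 to 4. The mean difference was 0.82 ± 0.08 (SE) in EAE mice, or 1.76-fold (adjusted p = 0.000226), and 1.10 ± 0.10 in healthy mice, or 2.14-fold (adjusted p = 0.000298, limma). By size, this healthy difference ranked 23 among all 45037 probe sets, and the EAE difference ranked 79. On 1455978_a_at, the difference was 0.66 ± 0.08 in EAE mice (adjusted p = 0.000673) and 1.08 ± 0.10 in healthy mice (adjusted p = 0.000298, limma). Over all probe sets, 3.28% passed this test in EAE mice and 1.77% in healthy mice, and 5.44% had the same sign in all 10 mice.

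The region difference of Matn2 passed the test on both probe sets whichever of the 10 mice was left out. Within single cohorts its size was similar but the test was mostly not passed, with 3 EAE and 2 healthy mice in each. On 1419442_at, the EAE difference was 0.85 in cohort 1 (adjusted p = 0.0906, limma) and 0.78 in cohort 2, where it passed, and the healthy difference was 1.25 (adjusted p = 0.0789) and 0.95 (adjusted p = 0.051).

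Abi3bp showed no region difference that passed the test. On 1427054_s_at, motor minus sensory cortex was -0.03 ± 0.16 in EAE mice (95% interval -0.37 to 0.31, adjusted p = 0.965, limma) and -0.10 ± 0.19 in healthy mice (-0.51 to 0.32, adjusted p = 0.925). The largest difference, 0.98, was that of EAE mouse 3. Without that mouse the EAE difference was -0.24 ± 0.09 (95% interval -0.45 to -0.04, adjusted p = 0.201, limma). On 1427053_at, the difference was -0.11 ± 0.10 in EAE mice (adjusted p = 0.733) and -0.05 ± 0.12 in healthy mice (adjusted p = 0.941, limma). The upper ends of the intervals printed here lie below the region differences of both Matn2 probe sets.

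**Figure D2:**
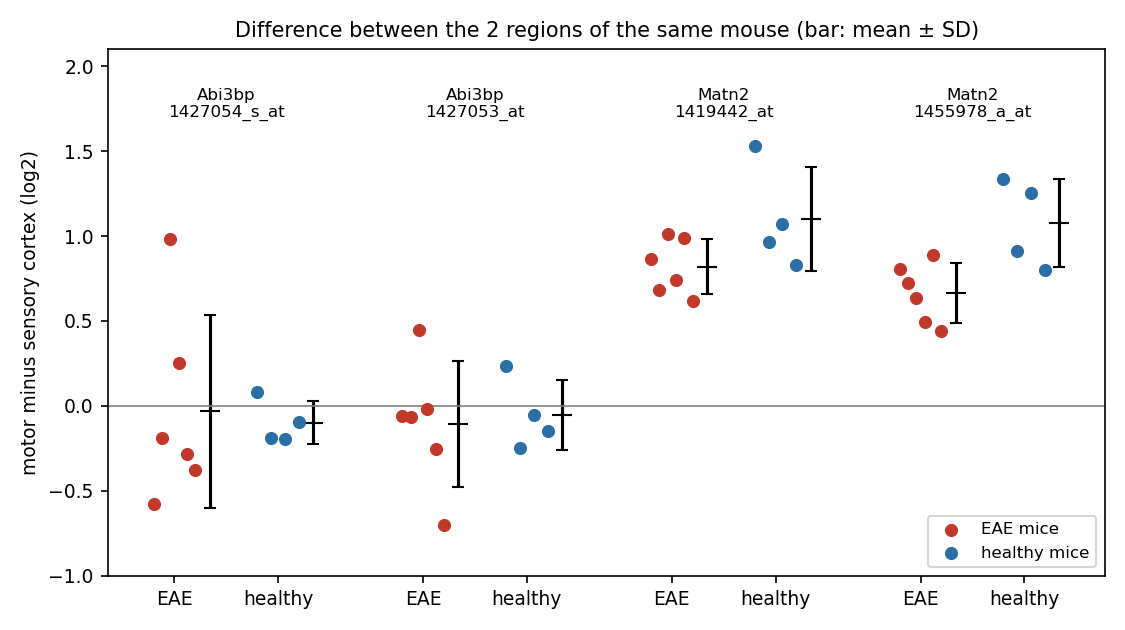
Motor minus sensory log2 expression (vertical axis) in each EAE mouse (red) and each healthy mouse (blue) for the 4 probe sets, with a bar for the mean ± SD and a line at 0. Both Matn2 probe sets are above 0 in all 10 mice, from 0.44 to 1.53, while the Abi3bp points lie on both sides of 0, from -0.70 to 0.98.

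The difference between the regions in the EAE effect was tested in the same model. For Matn2 the motor EAE effect minus the sensory EAE effect was -0.28 ± 0.13 on 1419442_at (95% interval -0.56 to -0.0014, unadjusted p = 0.049 by limma) and -0.41 ± 0.12 on 1455978_a_at (-0.68 to -0.14, unadjusted p = 0.0064 by limma). Both had an adjusted p of 1. For Abi3bp the difference was 0.07 ± 0.25 on 1427054_s_at (-0.47 to 0.60) and -0.055 ± 0.16 on 1427053_at (-0.40 to 0.29). Of all 45037 probe sets, 0% (0 probe sets) passed limma's test at an adjusted p under 0.05, and 991 had an unadjusted p under 0.05. A difference of the EAE effect between regions was therefore not shown for either gene.

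The probe sets of each gene were compared with each other over the 20 arrays, as a description. The levels of the 2 Abi3bp probe sets correlated at r = 0.97, and their deviations from the group means at r = 0.85. For the 2 Matn2 probe sets the values were 0.97 and 0.65. Between Abi3bp and Matn2, the deviations from the group means correlated at 0.02 to 0.25. Over both regions together, arrays with more of one gene within a group thus did not have clearly less of the other. These values pool 2 arrays of each mouse, and the sensory array of EAE mouse 3 had an Abi3bp deviation of -1.18 on 1427054_s_at. The relation over EAE mice within each region is given below.

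The genes whose levels were most like those of Abi3bp and Matn2 were taken by Pearson correlation over the 20 arrays, which share the group structure that chose both genes. For Abi3bp they were Elk3 (r = 0.95), an ETS transcription factor, Pmepa1 (0.95), a membrane protein that limits TGF-beta signalling, Slco1c1 (0.94), the thyroxine transporter of brain endothelium and choroid plexus, Inf2 (0.93), a formin, and Ccl27a (0.93), a chemokine. In EAE mice Elk3 was lower by -0.54 in motor and -0.60 in sensory cortex, and Slco1c1 by -0.54 and -0.51. For Matn2 they were Rnf150 (0.94), a RING finger protein, Plpp6 (0.93), a lipid phosphatase, Npr3 (0.93), the natriuretic peptide clearance receptor, Ccn3 (0.93), a matricellular protein, and Galnt16 (0.92), which starts O-glycosylation. All of these Matn2-like genes were higher in EAE than in healthy mice and higher in motor than in sensory cortex. For Ccn3 the EAE differences were 0.37 in motor and 0.61 in sensory cortex, and the region differences 0.29 in EAE and 0.52 in healthy mice. For Npr3 the EAE differences were 0.29 in motor and 0.38 in sensory cortex, and the region differences 0.32 in EAE and 0.42 in healthy mice.

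Clinical grade was set against expression over the 6 EAE mice, whose average grades were 2.5, 3, 2.75, 3, 3.5 and 3.5 for mice 1 to 6. These are 6 relations in all, each with an exact two-sided permutation test. Sensory Matn2 (1419442_at) was higher in mice of higher grade, with r = 0.87 and rho = 0.85 (exact permutation p = 0.0444 for each, adjusted p = 0.266 over the 6 relations). It did not pass after adjustment. Mice 1, 5 and 6 were equally far from the median grade, so r was taken over the 4 mice left without each pair of these 3, and for sensory Matn2 it was 0.73 to 0.97. The other Matn2 probe set gave r = 0.85 in sensory cortex. Cohort 2 held the mice of grade 3.5 and cohort 1 the mice under 3, so grade and cohort moved together, and a cohort of 3 mice is too small for a value of its own.

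No other relation among the EAE mice had a p under 0.05. Motor Matn2 gave r = 0.58 with grade (exact permutation p = 0.222, adjusted p = 0.444) and rho = 0.47 (adjusted p = 0.689). Its r was -0.63 without mice 1 and 5, 0.75 without mice 1 and 6, and 0.59 without mice 5 and 6. Abi3bp gave r = 0.27 with grade in motor cortex (exact permutation p = 0.611, adjusted p = 0.807) and rho = 0.12 (adjusted p = 0.889). In sensory cortex Abi3bp gave r = 0.26 with grade (exact permutation p = 0.672, adjusted p = 0.807) and rho = 0.09 (adjusted p = 0.889). Abi3bp against Matn2 gave r = -0.56 in motor cortex (exact permutation p = 0.211, adjusted p = 0.444) and rho = -0.77 (adjusted p = 0.308). In sensory cortex the 2 genes gave r = 0.09 (exact permutation p = 0.865, adjusted p = 0.865) and rho = -0.14 (adjusted p = 0.889). For Abi3bp with grade, r was -0.12 to 0.98 in motor and -0.25 to 0.87 in sensory cortex, depending on which pair of mice 1, 5 and 6 was left out. Between the genes, r was -0.96 in motor cortex without mice 3 and 6, and -0.61 in sensory cortex without mice 3 and 4, the 2 mice farthest from the median Abi3bp level in that region. Except for sensory Matn2 with grade, these relations thus changed in sign or by a wide margin with the mice left out.

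**Figure D3:**
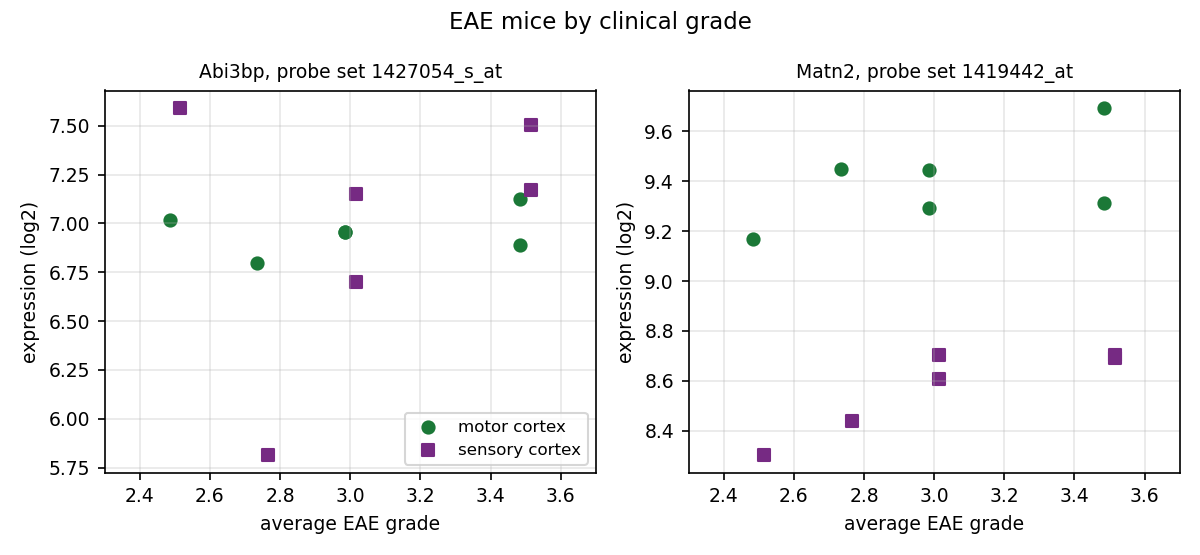
Log2 expression (vertical axis) of Abi3bp 1427054_s_at and Matn2 1419442_at against the average EAE grade (horizontal axis) in the 6 EAE mice, with green circles for motor and purple squares for sensory cortex, drawn slightly left and right of the true grade so that they do not cover each other. Sensory Matn2 is lowest, 8.30, in the mouse of grade 2.5, and r is 0.87, while Abi3bp shows no order by grade, with r of 0.27 in motor and 0.26 in sensory cortex.

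Beside the 2 genes stand 85 other matrix and partner genes from 6 lists, each taken by 1 probe set and tested by limma with adjustment over all probe sets. Of these, 1 was higher and 3 were lower in EAE motor cortex, and 1 was higher and 1 lower in EAE sensory cortex, with a median difference of -0.01 in motor and 0.03 in sensory cortex. Of all 18193 genes, 1.14% passed in motor cortex and 0.786% in sensory cortex, with medians of -0.0078 in motor and 0.0008 in sensory cortex. The one that was higher was Sparc, a collagen-binding matricellular protein, with 0.46 ± 0.08 in motor cortex (adjusted p = 0.0224, limma) and 0.60 ± 0.07 in sensory cortex (adjusted p = 0.0138). Hapln1, the link protein that ties proteoglycans to hyaluronan, was lower in motor cortex by -0.47 ± 0.08 (adjusted p = 0.0224, limma). Tnc, tenascin-C, was lower there by -0.50 ± 0.10 (adjusted p = 0.0388), and Adamts4, a protease that cleaves proteoglycans, by -0.67 ± 0.12 (adjusted p = 0.0324, limma). In sensory cortex Hapln1, Tnc and Adamts4 were lower by -0.26, -0.41 and -0.54 without a call (adjusted p = 0.316, 0.0795 and 0.0799, limma). Cspg5, neuroglycan C, was lower in sensory cortex by -0.38 ± 0.05 (adjusted p = 0.0215, limma), and by -0.32 ± 0.08 without a call in motor cortex (adjusted p = 0.0909). The mean level of the brain proteoglycan list was lower in EAE mice without overlap. It ran from 9.59 to 9.67 in EAE mice and 9.73 to 9.74 in healthy mice in motor cortex. In sensory cortex it ran from 9.57 to 9.71 in EAE mice and 9.71 to 9.78 in healthy mice. The genes of the proteoglycan list did not all go one way. Their median difference was -0.01 in motor cortex, with a range of -0.50 to 0.18. For sensory cortex the median was -0.06 and the range -0.41 to 0.15. The mean levels of the other matrix lists overlapped between conditions in both regions.

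These matrix calls lay near the threshold. With the mouse number as a block, the motor adjusted p was 0.0539 for Sparc, 0.0752 for Tnc and 0.0782 for Adamts4, while Hapln1 kept 0.0243 and Mgp, matrix Gla protein, came to 0.0338 (limma). When each of the 10 mice was left out in turn, Hapln1 passed 6 times, Tnc 2, Adamts4 1 and Cspg5 2 times, and Sparc 4 times in motor and 5 times in sensory cortex, with the highest adjusted p at 0.0928 for Hapln1, 0.107 for Tnc, 0.113 for Adamts4, 0.13 for Cspg5, and 0.0835 in motor and 0.091 in sensory cortex for Sparc. Leaving out any of the 4 healthy mice ended the calls of these 5 genes.

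The nearest relatives and partners of the 2 proteins showed no call in either region. Of the matrilin list (Matn1, Matn3 and Matn4, with Comp, which is a thrombospondin and not a matrilin), 0 of 4 passed limma's test, with a median difference of 0.02 in motor and 0.09 in sensory cortex. Matn1, cartilage matrix protein, differed by 0.25 ± 0.07 in motor cortex (adjusted p = 0.132, limma), and Matn4 by -0.22 ± 0.07 (adjusted p = 0.253). Of the binding partners of matrilin-2, 0 of 13 passed, with medians of -0.04 in motor and 0.06 in sensory cortex. Nid2, nidogen-2, differed by -0.38 ± 0.08 in motor cortex (adjusted p = 0.062, limma), and Lamc1, the laminin gamma 1 chain, by -0.21 ± 0.05 (adjusted p = 0.111). Of the ABI and WAVE complex genes, 0 of 10 passed, with medians of -0.045 in motor and -0.04 in sensory cortex. Their smallest p-values were those of Nckap1l, the blood cell subunit, at -0.18 ± 0.08 in motor cortex (adjusted p = 0.384, limma) and Wasf1 at 0.10 ± 0.05 in sensory cortex (adjusted p = 0.361).

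**Figure D4:**
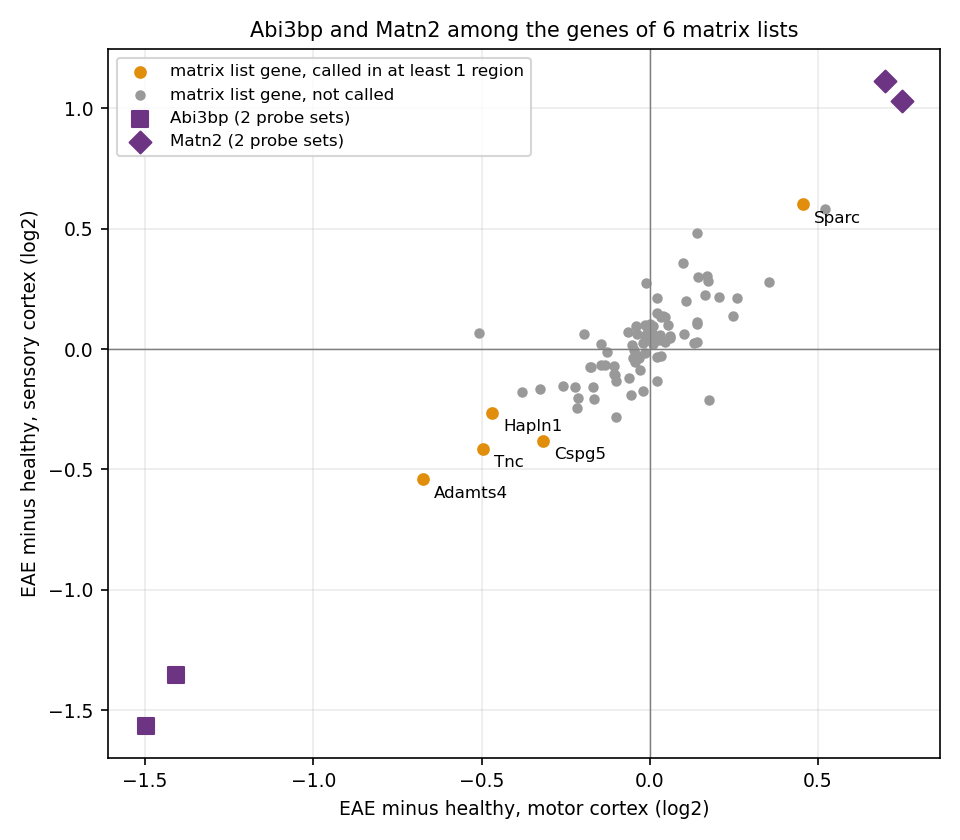
EAE minus healthy log2 difference in motor cortex (horizontal axis) and sensory cortex (vertical axis) for 85 genes of the 6 matrix lists (circles, orange where limma's adjusted p was under 0.05 in at least 1 region) and for the 2 Abi3bp (squares) and 2 Matn2 (diamonds) probe sets. The list genes lie between -0.67 and 0.52 in motor cortex, while Abi3bp lies at -1.50 and -1.41 and Matn2 at 0.75 and 0.70. Abi3bp and Matn2 were chosen on these differences, so nothing is read from their place outside the list genes.

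Between regions, 3 of the 85 matrix genes were higher and 3 lower in motor than in sensory cortex of EAE mice, and 2 were higher and 1 lower in healthy mice, where 4.58% of all genes passed in EAE mice and 2.36% in healthy mice. Spon1, F-spondin, was higher in motor cortex by 0.61 in EAE mice (adjusted p = 0.00438, limma) and 0.66 in healthy mice (adjusted p = 0.0149). Mmp17, a membrane-anchored metalloprotease, was higher by 0.37 in EAE mice (adjusted p = 0.00267, limma) and 0.36 in healthy mice (adjusted p = 0.0161). Acan, aggrecan of perineuronal nets, was lower by -0.33 in EAE mice (adjusted p = 0.0244, limma) and -0.39 in healthy mice (adjusted p = 0.0426). The remaining calls, in EAE mice, were the metalloprotease inhibitors Timp2 at 0.22, Timp3 at -0.24 and Timp4 at -0.25. With each mouse left out in turn, Spon1 and Mmp17 passed 10 of 10 times and Acan 8 times in EAE mice, and Spon1 passed 7, Mmp17 6 and Acan 4 times in healthy mice, while Timp2 passed 1, Timp3 4 and Timp4 5 times. On both probe sets, the region difference of Matn2 was larger than that of each of these genes.

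Marker lists of cell types were set beside the 2 genes, and their part in the values of Abi3bp and Matn2 was not tested. Of the meningeal and perivascular fibroblast list, which holds matrix-secreting cells, 0 of 14 genes passed in motor cortex and 1 was higher in sensory cortex, Fmod at 0.84 ± 0.15 (adjusted p = 0.0467, limma). The mean level of the fibroblast list ran from 8.52 to 9.21 in EAE mice and 8.81 to 9.06 in healthy mice in motor cortex, and from 8.83 to 9.50 in EAE mice and 8.80 to 9.20 in healthy mice in sensory cortex. Of the 9 endothelial genes, 2 were lower in each region. Slco1c1 was lower by -0.54 in motor cortex (adjusted p = 0.00158, limma) and -0.51 in sensory cortex (adjusted p = 0.02). Tek was lower by -0.40 in motor cortex (adjusted p = 0.0374, 0.0972 with the mouse number as a block) and Tie1 by -0.61 in sensory cortex (adjusted p = 0.0394, limma). Without a call, Tek was lower by -0.39 in sensory cortex (adjusted p = 0.0529, limma) and Tie1 by -0.46 in motor cortex (adjusted p = 0.0525). The mean level of the endothelial list did not overlap between conditions, with 9.60 to 9.77 in EAE mice and 9.82 to 9.98 in healthy mice in motor cortex, and 9.63 to 9.82 in EAE mice and 9.92 to 10.05 in healthy mice in sensory cortex. The genes of that list did not all go one way: Slc2a1, the glucose transporter of the blood-brain barrier and the brightest of them, differed by 0.32 ± 0.13 in motor cortex (adjusted p = 0.348, limma) and 0.48 ± 0.11 in sensory cortex (adjusted p = 0.0786), and Pecam1 by 0.05 in motor and 0.03 in sensory cortex.

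Of the 7 microglial genes measured, P2ry12 was lower by -0.97 in motor cortex (adjusted p = 0.00431, limma) and -0.98 in sensory cortex (adjusted p = 0.0358), and Gpr34 was lower by -1.19 in motor cortex (adjusted p = 0.00158). In sensory cortex Gpr34 was lower by -1.08 without a call (adjusted p = 0.0693, limma). The microglial list ran from 9.69 to 9.89 in EAE mice and 10.22 to 10.39 in healthy mice in motor cortex, and from 9.41 to 10.01 in EAE mice and 10.09 to 10.25 in healthy mice in sensory cortex, without overlap. The microglial genes did not all go one way. Their differences ran from -1.19 to 0.07 in motor cortex (median -0.40) and from -1.08 to 0.38 in sensory cortex (median -0.32). Of the 7 oligodendrocyte genes, Mag (-0.45, adjusted p = 0.0461, and 0.0557 with the block) and Ugt8a (-0.69, adjusted p = 0.0026, limma) were lower in motor cortex. In sensory cortex these genes of the oligodendrocyte list were lower by -0.45 and -0.62 without a call (adjusted p = 0.0785 and 0.0824, limma). That list ran from 11.57 to 11.84 in EAE mice and 11.88 to 12.29 in healthy mice in motor cortex, and from 11.55 to 12.06 in EAE mice and 12.02 to 12.11 in healthy mice in sensory cortex, where the conditions overlapped. Of the 5 neutrophil and monocyte genes, S100a8 (1.89, adjusted p = 0.000109, limma), S100a9 (1.37, adjusted p = 0.00691) and Ngp (0.48, adjusted p = 0.0149) were higher in motor cortex. In sensory cortex these genes of the neutrophil and monocyte list differed by 1.66, 1.27 and 0.48 without a call (adjusted p = 0.0685, 0.187 and 0.326, limma). The mean level of that list was higher in EAE mice without overlap, with 7.70 to 8.15 in EAE mice and 6.93 to 7.12 in healthy mice in motor cortex, and 7.42 to 8.74 in EAE mice and 6.87 to 7.11 in healthy mice in sensory cortex. The T and B cell list was also higher in EAE mice without overlap. It ran from 7.59 to 7.70 in EAE mice and 7.42 to 7.55 in healthy mice in motor cortex. In sensory cortex it ran from 7.62 to 7.94 in EAE mice and 7.36 to 7.60 in healthy mice. The median difference of the T and B cell genes was 0.02 in motor and 0.12 in sensory cortex, against a largest of 0.53 and 1.05. With each of the 10 mice left out in turn, the motor calls of Slco1c1, P2ry12, Gpr34, Ugt8a, S100a8 and S100a9 were kept 10 times and that of Ngp 9 times, those of Tek and Mag 1 time each, and the sensory calls of Fmod, Slco1c1, Tie1 and P2ry12 were kept 2 times each. No gene of the mural cell, astrocyte, precursor, Schwann cell, layer 6, claustrum, T and B cell, red blood cell, choroid plexus, cortex or other brain region lists passed in the EAE contrasts, apart from Aqp4 of astrocytes (0.0278) and Ccl5 of T cells (0.0338) in motor cortex with the block, where Siglech of microglia (0.0499) and Opalin of oligodendrocytes (0.0231) also passed.

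The brightest genes of the marker lists mostly had no call. Igf2 and Igfbp2 of fibroblasts differed by 0.16 and -0.75 in motor cortex and by 0.60 and -0.39 in sensory cortex. Csf1r, the receptor of colony-stimulating factor 1 on microglia, differed by -0.19 in motor and -0.09 in sensory cortex, less than the called P2ry12. Mbp and Cnp, of myelin, differed by -0.04 and -0.22 in motor cortex and by 0.03 and -0.21 in sensory cortex. In the other 12 lists, 23 of the 2 brightest genes of each had no call, with differences of -0.33 to 0.08 in motor and -0.36 to 0.28 in sensory cortex. They were Acta2 and Rgs5 of mural cells, Aldoc and Slc1a2 of astrocytes, Pdgfra and Sox10 of precursors, Ngfr and Pmp22 of Schwann cells, Hs3st4 and Tle4 of layer 6, Lxn and Synpr of claustrum, Cd3e and Cd4 of T cells, Ccr2 of monocytes, Alas2 and Hba-a1 of red blood cells, Folr1 and Ttr of choroid plexus, Cux2 and Slc17a7 of cortex, and Drd1 and Tcf7l2 of other regions. Some less bright genes of these lists differed by more. Of the less bright genes, S100a8 and S100a9 of the neutrophil and monocyte list were called in motor cortex, as given above. The others had no call in the fit with cohort. Over the whole astrocyte list the differences were -0.40 to 0.65 in motor and -0.11 to 0.97 in sensory cortex. Over the T and B cell list they were -0.05 to 0.53 in motor and 0.0065 to 1.05 in sensory cortex.

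Between regions, 2 of the 103 measured genes of the 16 marker lists were higher and 15 lower in motor than in sensory cortex of EAE mice, and 8 lists had no call. In healthy mice 1 was higher and 2 were lower, and 14 lists had no call. Of all 18193 genes, 435 were higher and 398 lower in EAE mice, and 246 higher and 184 lower in healthy mice. In EAE mice, 4 of 14 fibroblast genes were lower in motor than in sensory cortex (Dcn, Col3a1, Igf2 and Igfbp2, by -0.46 to -0.68), as were Acta2 and Tagln of mural cells, Gfap (-0.72) and Aqp4 of astrocytes, Pmp22 of Schwann cells, Ccl5 and Plac8. The claustrum genes Nr4a2 (-1.95, adjusted p = 0.000492, limma) and Lxn (-0.52, adjusted p = 0.00226) were lower in motor cortex of EAE mice, and Nr4a2 also in healthy mice (-1.63, adjusted p = 0.00916). The genes that were higher in motor cortex, Fezf2 in both conditions and Neurod6 in EAE mice (0.49, adjusted p = 0.0329, limma), belonged to the cerebral cortex list, which also held the lower Rorb and, in EAE mice, Cux2. With each of the 10 mice left out in turn, the EAE calls of Dcn and Neurod6 were kept 3 times each (highest adjusted p 0.12 for Dcn and 0.124 for Neurod6, limma), that of Acta2 6 times, those of Aqp4 and Ccl5 7 times each and that of Pmp22 8 times, and the other EAE calls 10 times. In healthy mice, Rorb was kept 10 times, Nr4a2 8 times and Fezf2 7 times. The part of these genes in the region difference of Matn2 was not tested.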

How the data were processed

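The deposited table holds log2 expression of 20 Affymetrix arrays, which the authors made with RMA and Partek, per the submitters' processing notes; their versions are not given in the sources used here, and precision is limited by how many arrays there are. Gene symbols came from the platform's annotation table (34945 probe sets with 1 symbol, 932 with several, 9160 with none), and 64 control probe sets were left out. A gene in a list was taken by its probe set of highest mean. limma 3.58.1 in R 4.3.3 was fitted over 45037 probe sets with cohort as a covariate, for EAE against healthy within a region and for each mouse's motor minus sensory value, with Benjamini-Hochberg adjustment and a threshold of 0.05; the steps were tested on simulated data. The members and lists were chosen with earlier results of these data known. Named were all member probe sets, of each matrix list every called gene or else the 2 of smallest p, of each cell type list the 2 brightest and the called genes, and the 5 genes most like each member. Of the 203 list entries, 189 were measured.

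The 2 regions of a mouse are paired by its label. Same-numbered EAE and healthy mice are different animals, but the deviations of their motor arrays correlated at 0.11 to 0.34, all 4 over 0.1 (sensory, 1 of 4, at -0.28 to 0.45), so motor calls that change with the number as a block are given with that value. The blocked fit has no cohort term, and the mice numbered 3 are of different cohorts. EAE mice 5 and 6 have no healthy mouse of their number, so its EAE difference rests on mice 1 to 4 of each condition. Alternatives were no cohort term, the block, quantile normalization, a filter on dim probe sets (mean under 6), 1 probe set per gene, leaving out the later arrays, single cohorts and leaving out each mouse.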

Additional observations from a re-analysis of the deposited data

How the results depend on the processing

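The EAE-minus-healthy differences of Abi3bp and Matn2 kept their direction under every alternative, as did the region differences of Matn2. Matn2 1419442_at differed in motor cortex by 0.59 within cohort 1 and 0.91 within cohort 2, and its region difference no longer passed within cohort 1 of EAE mice (0.85) or within cohort 1 (1.25) or 2 (0.95) of healthy mice. The same held for 1455978_a_at, with 0.72 and 0.61 within cohorts 1 and 2 of EAE mice and 1.12 and 1.03 of healthy mice; these fits have fewer mice. The uncalled region differences of Abi3bp changed sign: 1427054_s_at in EAE mice was 0.072 within cohort 1 and -0.24 to 0.11 when 1 mouse was left out. For 1427053_at they were 0.11 within cohort 1 of EAE mice, and -0.11 to 0.079 in healthy mice with 1 mouse left out. The difference of the EAE effect was -0.15 to 0.21 on 1427054_s_at and -0.19 to 0.046 on 1427053_at with 1 mouse left out, and on the second 0.042 without the later arrays and 0.11 within cohort 1. With the other probe sets, r in motor cortex was -0.53 between Abi3bp and grade and 0.014 between the genes. Among the 3 mice tied as farthest from the median grade (1, 5 and 6), leaving out mice 1 and 5 gave r = -0.63 between motor Matn2 and grade (0.75 without mice 1 and 6), and leaving out mice 5 and 6 gave -0.12 in motor and -0.25 in sensory cortex between Abi3bp and grade. Without mice 3 and 4, farthest in sensory Abi3bp, r was -0.61 between the genes there.

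Counts of called probe sets moved more. In motor cortex 325 were called (77 higher, 248 lower), and 89 without the later arrays, 5 and 16 within cohorts 1 and 2, and 34 to 347 with 1 mouse left out (144, 178, 138 and 210 without EAE mice 2, 3, 5 and 6, and 34, 90, 102 and 89 without healthy mice 1 to 4). In sensory cortex 260 were called (104 higher, 156 lower), and 6 with the replicate block, 438 with 1 probe set per gene, 7 without the later arrays, 0 (with 1457 at an unadjusted p under 0.05) and 15 within cohorts 1 and 2, and 6 to 1375 with 1 mouse left out (1375 without EAE mouse 1, 53, 51, 10 and 44 without EAE mice 2, 4, 5 and 6, and 7, 16, 6 and 6 without healthy mice 1 to 4). Quantile normalization gave 98 higher and 206 lower in motor cortex and 128 higher and 123 lower in sensory cortex. Between regions, 1478 were called in EAE mice and 798 in healthy mice, against 925 and 74 without the later arrays, 41 and 16 within cohort 1, and 272 and 24 within cohort 2. With 1 mouse left out they were 787 to 1770 in EAE mice (910, 838 and 787 without EAE mice 2, 4 and 5) and 199 to 1203 in healthy mice (1203 without EAE mouse 3, and 205, 229 and 199 without healthy mice 1, 2 and 3). The EAE effect differed between regions for 0 probe sets by limma in each alternative. The cause of these shifts was not tested.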

Other observations

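Within the groups, the genes whose deviations from the 4 group means were most like those of Abi3bp were Rsph3a (r = 0.90 over the 20 arrays), AU016916, Ccdc96, Zfp229 and Zwilch. Without the sensory array of EAE mouse 3, which stood apart, these correlations were 0.53 to 0.77, and that of Rsph3a was 0.60. The genes most like Matn2 within the groups were Tnnt2 (r = 0.78), cardiac troponin T, Plpp6, Slc39a9, a zinc transporter, Phf12 and Ankmy2, and without that array these values were 0.75 to 0.79. Plpp6 was thus near to Matn2 both in its levels and in its deviations within groups. Tnnt2 was higher in motor than in sensory cortex by 0.87 in EAE mice and 0.86 in healthy mice, and differed by 0.06 ± 0.12 in motor and 0.05 ± 0.12 in sensory cortex between EAE and healthy mice.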
